A study of Homo sapiens with 6 samples.

Results

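The mitochondrial genome of human cells carries 37 genes, and all 37 were found in the deposited count table by a gene symbol that starts with MT-, out of 60605 genes in all. They comprise 13 messenger RNA genes, 2 ribosomal RNA genes and 22 transfer RNA genes. The choice used names only and no measured value. The study measured polyadenylated RNA of HuCCT-1, an established human cholangiocarcinoma (bile duct cancer) cell line. In the first group (JNJ), cells received the PRMT5 inhibitor JNJ-64619178 at 6 nM for 4 days. PRMT5 is an enzyme that methylates arginines in proteins. In the second group (DMSO), cells received an equal volume of the solvent DMSO for 4 days. There were 3 libraries in each group, all from 1 cell line grown in DMEM-F12 with fetal bovine serum. Separate cultures are not named for the replicates in the labels, and p-values therefore reflect only the spread among these 6 libraries, which may be technical.

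Mitochondrial DNA is a small circle that encodes core subunits of the respiratory chain and of ATP synthase, together with the ribosomal and transfer RNAs needed to translate them inside the organelle. Both strands are transcribed as long precursors, and most messenger and ribosomal RNAs are released when enzymes cut out the transfer RNAs that lie between them. All other proteins of mitochondrial transcription, RNA processing, RNA decay and translation come from nuclear genes. Most mitochondrial messenger RNAs carry a short poly(A) tail, and the ribosomal RNAs carry short stretches of A. The MT-ND6 messenger RNA is known to lack a regular tail, and transfer RNAs end in CCA. A library selected for poly(A) therefore samples these RNA classes unequally, and levels were compared here mainly for 1 gene across libraries.

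Depth was 24315685, 28224911 and 23931991 counts in the JNJ libraries, against 30194024, 28133746 and 30691914 counts in the DMSO libraries. Over all genes, 17371 were frequent enough to be tested, and 37.1% of them passed the threshold, an adjusted p of 0.05 in edgeR's quasi-likelihood test with Benjamini-Hochberg adjustment over all genes tested. The share of genes that rose was 20.0% and the share that fell was 17.1%, with a median log2 fold change of 0.00. All 5 biliary epithelial markers reported (KRT7, KRT19, EPCAM, SOX9 and CDH1) were expressed, with summed levels of 3881 to 4107 CPM (counts scaled per 1e6 of library size) in JNJ libraries and 4802 to 5023 CPM in DMSO libraries. Of these, KRT7 and KRT19 fell and SOX9 rose. Summed markers of fibroblasts, leukocytes, endothelium and hepatocytes lay between 0.0642 and 1.67 CPM in every library, with TTR at 0 in all 6.

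Mitochondrially encoded RNA made up 16.76, 16.95 and 18.92% of all gene counts in JNJ libraries 1 to 3, against 20.33, 20.61 and 17.84% in DMSO libraries 1 to 3. The groups overlapped, since the highest JNJ library stood above the lowest DMSO library. The means were 17.5% ± 1.20 in JNJ cells and 19.6% ± 1.53 in DMSO cells (SD, n = 3 each). Exact 95% binomial (Clopper-Pearson) intervals of the 6 shares were at most 0.031 percentage points wide, and cover counting error only. The difference on the log2 scale was -0.16, with a pooled SD between replicates of 0.106. In bulk RNA, fewer cells with a high mitochondrial share and less mitochondrial RNA per cell cannot be told apart. Messenger RNA genes held 11.2% ± 0.839 of all counts in JNJ cells and 12.6% ± 0.883 in DMSO cells. The ribosomal RNA genes held 6.35% ± 0.377 in JNJ cells and 6.97% ± 0.694 in DMSO cells. Transfer RNA genes held 0.00364% ± 0.000798 in JNJ cells and 0.00513% ± 0.000692 in DMSO cells.

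**Figure D1:**
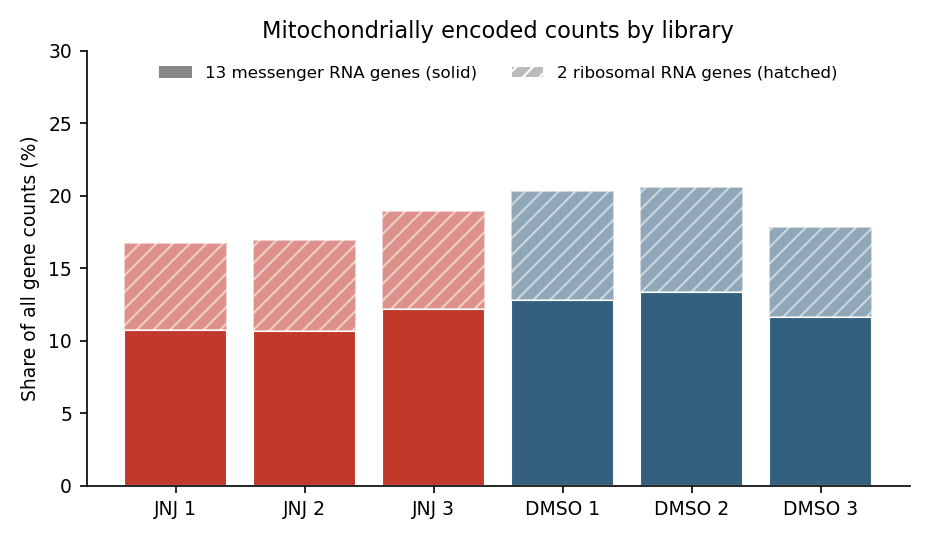
Share of all gene counts, in percent, held by the mitochondrial messenger RNA genes (solid) and ribosomal RNA genes (hatched), with a bar for each library. JNJ 1 and JNJ 2 lie below every DMSO library, while JNJ 3 at 18.92% lies above DMSO 3 at 17.84%.

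The mitochondrial messenger and ribosomal RNA genes largely moved up and down together from library to library within a group. Over the 15 messenger and ribosomal RNA genes, DMSO 2 was the highest DMSO library in 13 and DMSO 3 the lowest in 13, not all the same genes. JNJ 3 was the highest JNJ library in 15 of 15, and the lowest was JNJ 1 in 8 and JNJ 2 in 7. The 12 tested transfer RNA genes were less uniform in DMSO cells, with DMSO 2 highest in 8 and DMSO 3 lowest in 6. JNJ 3 was the highest JNJ library in 11 of these 12. The median coefficient of variation of CPM between replicates over the 15 messenger and ribosomal RNA genes was 9.88% in JNJ cells and 8.55% in DMSO cells. When each gene was expressed as a share of all mitochondrial counts, it was 3.24% in JNJ cells and 3.45% in DMSO cells. These genes make up nearly all of that total, so a smaller spread on this scale is partly built in. What sets the library-wide level was not tested.

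Of the 37 genes, 27 passed the filter on low counts, namely all 13 messenger RNA genes, both ribosomal RNA genes and 12 of 22 transfer RNA genes. In JNJ cells 12 of the 27 fell, against 17.1% of all genes tested, and 0 rose, against 20.0% of all genes tested. No gene was higher at an unadjusted p under 0.05 either, and 18 were lower. Of all 17371 genes tested, 7847 had such a p in either direction. DESeq2 and limma-voom also called 0 genes higher. The log2 fold change was negative in 25 genes and positive in 2, with a median of -0.25. The groups did not overlap in 9 genes, against 47.0% of all genes tested. In all 9 the JNJ libraries lay below the DMSO libraries, which held for 22.2% of all genes tested, and in 0 genes they lay above, which held for 24.7%.

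The genes that fell included 7 of 13 messenger RNA genes, with a class median log2 fold change of -0.18, 0 of 2 ribosomal RNA genes, and 5 of 12 transfer RNA genes, with a class median of -0.57. How many passed depended on single libraries. The count of messenger RNA genes that fell was 3 without DMSO 2, and 11 without DMSO 3 as well as without JNJ 3. Over all classes, 5 genes fell without DMSO 2, 7 without JNJ 2, 16 without DMSO 3 and 21 without JNJ 3. MT-RNR2, MT-ND1, MT-CO2 and MT-ATP6 were called lower without DMSO 3 as well as without JNJ 3. With DESeq2, 6 genes fell, namely MT-CO3, MT-ND6, MT-TQ, MT-TS1, MT-TT and MT-TP. The 4 genes MT-CO3, MT-ND6, MT-TT and MT-TP passed in all 14 alternatives of scaling, filter, tool and left-out library that kept the library size on all genes. With the mitochondrial counts as library size, given further on, MT-CO3, MT-ND6 and MT-TT did not pass (adjusted p = 0.376, 0.506 and 0.134). Their log2 fold changes there were -0.12, -0.13 and -0.31. Their standard errors there were 0.094, 0.128 and 0.154, against 0.060, 0.061 and 0.113 with scaling over all genes. A call lost on that scale therefore does not show that a share was unchanged.

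**Figure D2:**
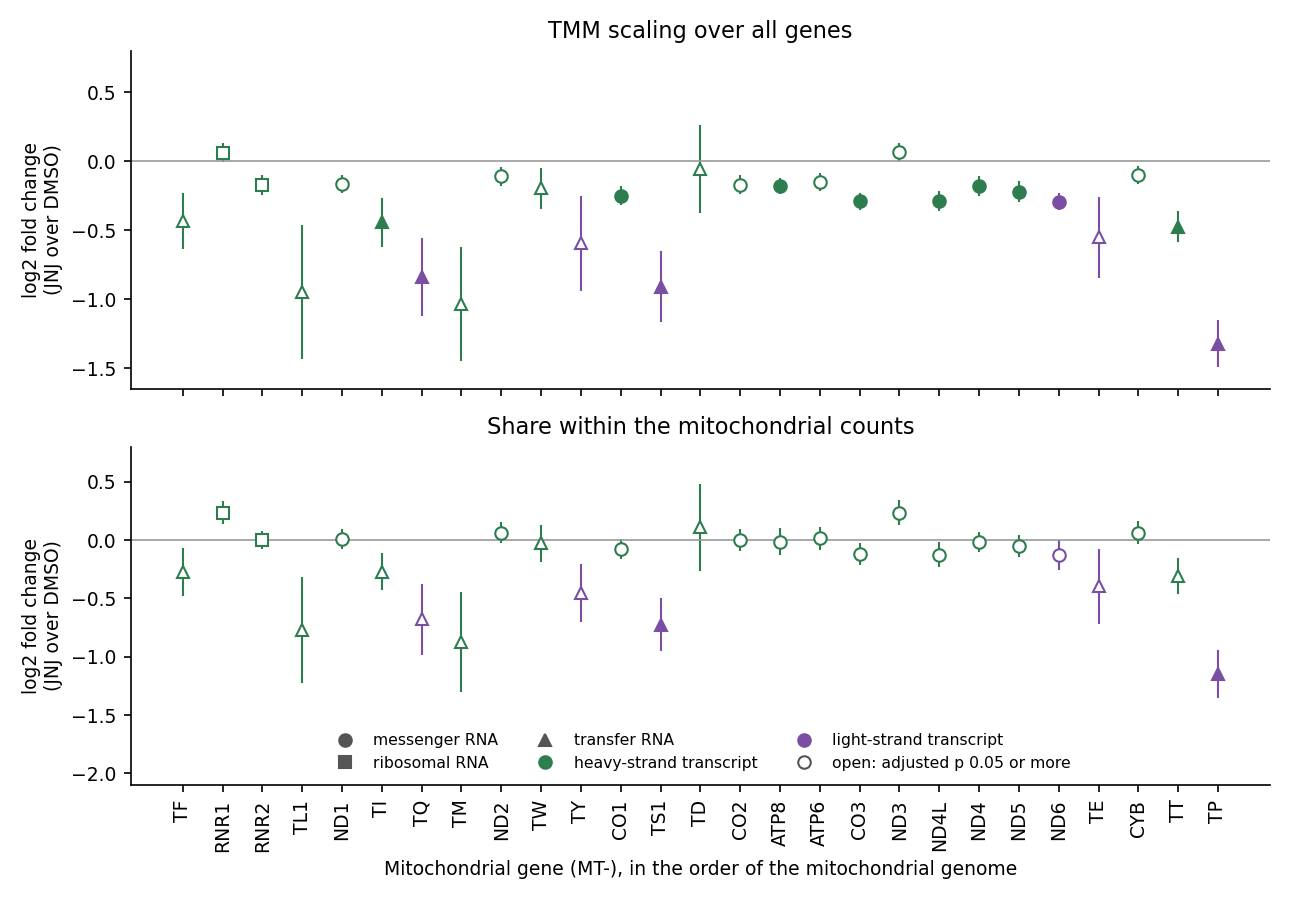
Log2 fold change (JNJ over DMSO) of the 27 tested mitochondrial genes in the order of the genome, with standard errors as bars. The upper panel uses scaling over all genes, where 12 genes pass the threshold (filled symbols). The lower panel sets the library size to the mitochondrial counts, where MT-TS1 and MT-TP pass.

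Complex I, the NADH dehydrogenase that feeds electrons into the respiratory chain, has 7 subunits encoded in mitochondrial DNA, and 4 of the 7 genes fell. MT-ND6 (chrM:14149-14673 on GRCh38, minus strand) is the only messenger RNA gene on the light strand, the name used here for genes annotated on the minus strand. It had 120, 116 and 139 CPM in JNJ libraries 1 to 3, against 141, 166 and 152 CPM in DMSO libraries 1 to 3. The groups did not overlap, but JNJ 3 and DMSO 1 nearly met. MT-ND6 fell by 0.29 on the log2 scale (SE 0.061, adjusted p = 4.88e-04). MT-ND4L (chrM:10470-10766), a small membrane subunit, had 1840, 1524 and 2021 CPM in JNJ libraries and 2181, 2351 and 2052 CPM in DMSO libraries. It fell by 0.29 on the log2 scale (SE 0.070, adjusted p = 0.00207), again without overlap, although JNJ 3 and DMSO 3 lay close together.

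MT-ND5 (chrM:12337-14148) had 6520, 5384 and 7031 CPM in JNJ libraries and 7392, 7951 and 6715 CPM in DMSO libraries. MT-ND4 (chrM:10760-12137) had 17675, 16786 and 20884 CPM in JNJ libraries and 21047, 22447 and 19268 CPM in DMSO libraries. Both encode proton-pumping subunits of the membrane arm, and both groups overlapped through JNJ 3 and DMSO 3. MT-ND5 fell by 0.22 on the log2 scale (SE 0.073, adjusted p = 0.0206) and MT-ND4 fell by 0.18 (SE 0.071, adjusted p = 0.0464). MT-ND5 lost its call without JNJ 2, DMSO 1 or DMSO 2 (adjusted p = 0.0536 to 0.171), and MT-ND4 lost it without JNJ 1, JNJ 2, DMSO 1 or DMSO 2 (adjusted p = 0.0989 to 0.236). MT-ND4L and MT-ND4 are read from 1 shared messenger RNA and overlap by 7 bases.

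The other 3 complex I genes did not pass. MT-ND1 (chrM:3307-4262) had 15532, 15954 and 17400 CPM in JNJ libraries and 19075, 19643 and 16075 CPM in DMSO libraries, a log2 fold change of -0.16 (SE 0.067, adjusted p = 0.0561). MT-ND2 (chrM:4470-5511) had 13272, 13902 and 15687 CPM in JNJ libraries and 16184, 16376 and 13622 CPM in DMSO libraries, a log2 fold change of -0.11 (adjusted p = 0.236). In both, JNJ 1 and JNJ 2 were low and DMSO 3 was low as well, so the groups overlapped. MT-ND3 (chrM:10059-10404) had 2127, 2444 and 2635 CPM in JNJ libraries and 2300, 2427 and 2155 CPM in DMSO libraries. It was 1 of the 2 genes with a positive value, a log2 fold change of 0.07 (SE 0.062, adjusted p = 0.434), and the groups were mixed. Without JNJ 1, MT-ND3 was called higher, at 0.15 (adjusted p = 0.0454).

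MT-CYB (chrM:14747-15887) encodes cytochrome b, the one mitochondrially encoded subunit of complex III. It had 5234, 5058 and 6231 CPM in JNJ libraries and 5845, 6330 and 5555 CPM in DMSO libraries. The groups overlapped, with a log2 fold change of -0.10 (SE 0.066, adjusted p = 0.241).

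Complex IV, cytochrome c oxidase, passes electrons to oxygen, and 2 of its 3 mitochondrial genes fell. MT-CO3 (chrM:9207-9990) had 8902, 9009 and 10084 CPM in JNJ libraries, against 11441, 12208 and 10595 CPM in DMSO libraries. Every JNJ library lay below every DMSO library. MT-CO3 averaged 9332 ± 654 CPM in JNJ cells and 11415 ± 807 CPM in DMSO cells (SD, n = 3 each), and fell by 0.29 on the log2 scale (SE 0.060, adjusted p = 4.66e-04). MT-CO1 (chrM:5904-7445), the catalytic subunit, had 19722, 19394 and 22711 CPM in JNJ libraries and 25360, 26413 and 21756 CPM in DMSO libraries. JNJ 3 stood above DMSO 3, and MT-CO1 fell by 0.25 on the log2 scale (SE 0.070, adjusted p = 0.00650, and 0.0687 without DMSO 2). MT-CO2 (chrM:7586-8269), which receives electrons from cytochrome c, had 9114, 9637 and 11243 CPM in JNJ libraries and 11455, 12107 and 10170 CPM in DMSO libraries. It did not pass, with a log2 fold change of -0.17 (SE 0.070, adjusted p = 0.0591). Summed CPM of the 3 complex IV genes in JNJ cells was 0.847 times that in DMSO cells, against 0.896 times for complex I, 0.897 times for complex V and 0.932 times for MT-CYB. Differences between the complexes were not tested. The ratio of MT-CO3 to MT-ATP6 counts, neighbours in the genome chosen after the values were seen, was 1.71, 1.68 and 1.62 in JNJ libraries and 1.81, 1.82 and 1.88 in DMSO libraries, with no overlap.

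Complex V, the ATP synthase, has 2 mitochondrially encoded subunits, and their reading frames overlap by 46 bases (chrM:8527-8572, plus strand). The overlap is shown because reads that fall inside it match both genes. Capitals mark the start codon of MT-ATP6 at its left end and the stop codon of MT-ATP8 at its right end, in the GENCODE release 29 transcripts on GRCh38.
overlap of MT-ATP8 and MT-ATP6: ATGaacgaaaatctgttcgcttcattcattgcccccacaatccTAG
MT-ATP8 (chrM:8366-8572) had 1021, 927 and 1087 CPM in JNJ libraries and 1064, 1264 and 1113 CPM in DMSO libraries. Only DMSO 1 fell within the range of the JNJ libraries, and MT-ATP8 fell by 0.18 on the log2 scale (SE 0.060, adjusted p = 0.0194). The adjusted p of MT-ATP8 was 0.113 without JNJ 2 and 0.194 without DMSO 2. MT-ATP6 (chrM:8527-9207) had 5202, 5355 and 6240 CPM in JNJ libraries and 6320, 6703 and 5652 CPM in DMSO libraries, and did not pass (log2 fold change -0.15, adjusted p = 0.0721). The ratio of MT-ATP8 to MT-ATP6 counts overlapped between the groups, at 0.181 ± 0.0131 in JNJ cells and 0.185 ± 0.0147 in DMSO cells.

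Neither ribosomal RNA gene passed, and their values had opposite signs. MT-RNR1 (chrM:648-1601) encodes the RNA of the small ribosomal subunit and MT-RNR2 (chrM:1671-3229) that of the large subunit. MT-RNR1 had 6633, 7372 and 7683 CPM in JNJ libraries and 7514, 7236 and 6048 CPM in DMSO libraries, a log2 fold change of 0.06 (SE 0.068, adjusted p = 0.523). MT-RNR2 had 52812, 54567 and 60819 CPM in JNJ libraries and 68354, 66323 and 54878 CPM in DMSO libraries, a log2 fold change of -0.17 (adjusted p = 0.0716). Both sets of libraries overlapped. The ratio of MT-RNR1 to MT-RNR2 counts, a pair chosen after the values were seen and so not tested, was 0.126, 0.135 and 0.126 in JNJ libraries and 0.1099, 0.1091 and 0.1102 in DMSO libraries. All JNJ ratios lay above all DMSO ratios.

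**Figure D3:**
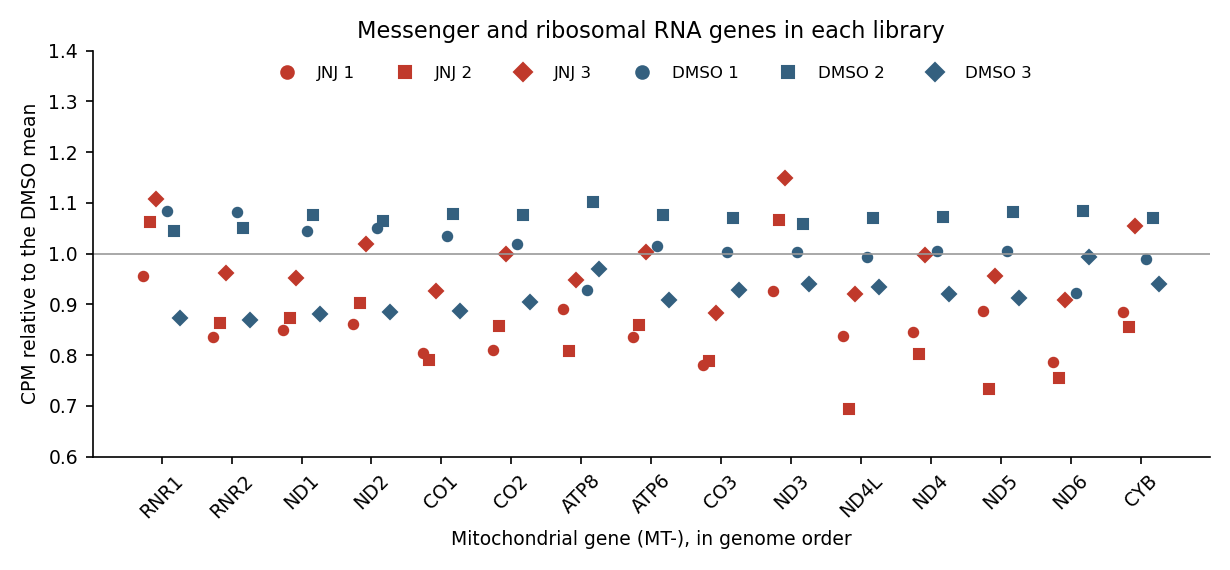
CPM of each messenger and ribosomal RNA gene in each library, divided by the DMSO mean of that gene, in genome order. JNJ 3 stands above DMSO 3 (diamonds) in MT-RNR2, MT-ND1 and MT-CO1 among others, and the groups are apart in MT-CO3, MT-ND4L and MT-ND6.

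Per length, MT-RNR2 had the highest level in both groups, at 35963 ± 2700 CPM per kilobase in JNJ cells and 40529 ± 4660 in DMSO cells. MT-ND1, MT-CO2, MT-CO1, MT-ND4, MT-ND2 and MT-CO3 followed, from 11903 CPM per kilobase (MT-CO3) to 17045 (MT-ND1) in JNJ cells and from 14560 to 19105 in DMSO cells. The ranges of neighbours in that stretch overlapped over the DMSO libraries. Their order within single libraries was not compared. MT-ATP6 followed at 8222 ± 823 in JNJ cells and 9141 ± 781 in DMSO cells. MT-ND4L, MT-RNR1 and MT-ND3, whose DMSO libraries overlapped in that order, had 6044, 7578 and 6942 CPM per kilobase in JNJ cells and 7390, 7267 and 6630 in DMSO cells. MT-ATP8 and MT-CYB overlapped too, and MT-ND5 came after them with 3483 ± 465 in JNJ cells and 4058 ± 342 in DMSO cells. MT-ND6 was the lowest messenger RNA gene, at 238 ± 23.5 CPM per kilobase in JNJ cells and 292 ± 23.5 in DMSO cells.

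The transfer RNA genes that fell were MT-TP, MT-TT, MT-TS1, MT-TQ and MT-TI, which serve proline, threonine, serine, glutamine and isoleucine. Their sequences are shown 5′ to 3′ in the sense of the transfer RNA, with the anticodon in capitals, to show the short and unlike genes behind these counts. They come from the GENCODE release 29 transcripts on GRCh38. MT-TP lies at chrM:15956-16023 and MT-TT at chrM:15888-15953, side by side on opposite strands. MT-TS1 lies at chrM:7446-7514, MT-TQ at chrM:4329-4400 and MT-TI at chrM:4263-4331, and the ends of MT-TQ and MT-TI overlap by 3 bases. MT-TP, MT-TS1 and MT-TQ are on the minus strand.
MT-TP: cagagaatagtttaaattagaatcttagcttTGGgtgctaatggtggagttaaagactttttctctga
MT-TT: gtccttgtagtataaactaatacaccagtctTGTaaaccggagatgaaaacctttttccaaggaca
MT-TS1: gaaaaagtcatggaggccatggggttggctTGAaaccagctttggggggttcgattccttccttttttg
MT-TQ: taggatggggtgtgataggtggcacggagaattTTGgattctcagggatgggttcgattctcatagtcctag
MT-TI: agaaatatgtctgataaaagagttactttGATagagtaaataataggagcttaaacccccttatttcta

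Counts of transfer RNA genes were low and rest on few reads, so their intervals are wide. MT-TP had 55, 49 and 59 counts in JNJ libraries and 167, 159 and 146 counts in DMSO libraries, or 2.24, 1.71 and 2.50 CPM in JNJ libraries, against 5.60, 5.76 and 4.69 CPM in DMSO libraries. The groups stood well apart. MT-TP fell by 1.32 on the log2 scale, to 0.40 times the DMSO level (SE 0.17, adjusted p = 1.05e-06), the largest change among the 27 genes tested. MT-TT had 7.12, 9.34 and 10.1 CPM in JNJ libraries and 12.1, 13.6 and 11.3 CPM in DMSO libraries, with no overlap, and fell by 0.48 on the log2 scale (SE 0.11, adjusted p = 0.00167).

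MT-TS1 had 1.75, 1.29 and 2.20 CPM in JNJ libraries and 3.52, 4.42 and 1.89 CPM in DMSO libraries. JNJ 3 stood above DMSO 3, and MT-TS1 fell by 0.91 on the log2 scale (SE 0.26, adjusted p = 0.00679, and 0.0786 without DMSO 2). MT-TQ had 0.854, 0.770 and 1.06 CPM in JNJ libraries and 1.11, 1.81 and 1.86 CPM in DMSO libraries. JNJ 3 and DMSO 1 almost met, and MT-TQ fell by 0.84 on the log2 scale (SE 0.28, adjusted p = 0.0225). MT-TI had 4.96, 7.59 and 9.28 CPM in JNJ libraries and 10.5, 12.4 and 6.97 CPM in DMSO libraries. The groups overlapped, and MT-TI passed narrowly (log2 fold change -0.44, adjusted p = 0.0499). MT-TQ lost its call without JNJ 1, JNJ 2, DMSO 2 or DMSO 3 (adjusted p = 0.0546 to 0.0987). MT-TI lost it without JNJ 1, JNJ 2, DMSO 1 or DMSO 2 (adjusted p = 0.0594 to 0.2996), and its log2 fold change was -0.24 without JNJ 1 and -0.27 without DMSO 2.

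The other 7 transfer RNA genes tested did not pass, and all had negative log2 fold changes. Among them, MT-TM (methionine) was at -1.03 with 0.203, 0.280 and 0.636 CPM in JNJ libraries, against 0.938, 0.652 and 0.674 CPM in DMSO libraries. MT-TF (phenylalanine) was at -0.44 and MT-TE (glutamate) at -0.55, and in these 3 genes every JNJ library lay below every DMSO library. MT-TL1 (leucine) was at -0.95, MT-TY (tyrosine) at -0.60, MT-TW (tryptophan) at -0.20 and MT-TD (aspartate) at -0.06, all with overlapping libraries.

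**Figure D4:**
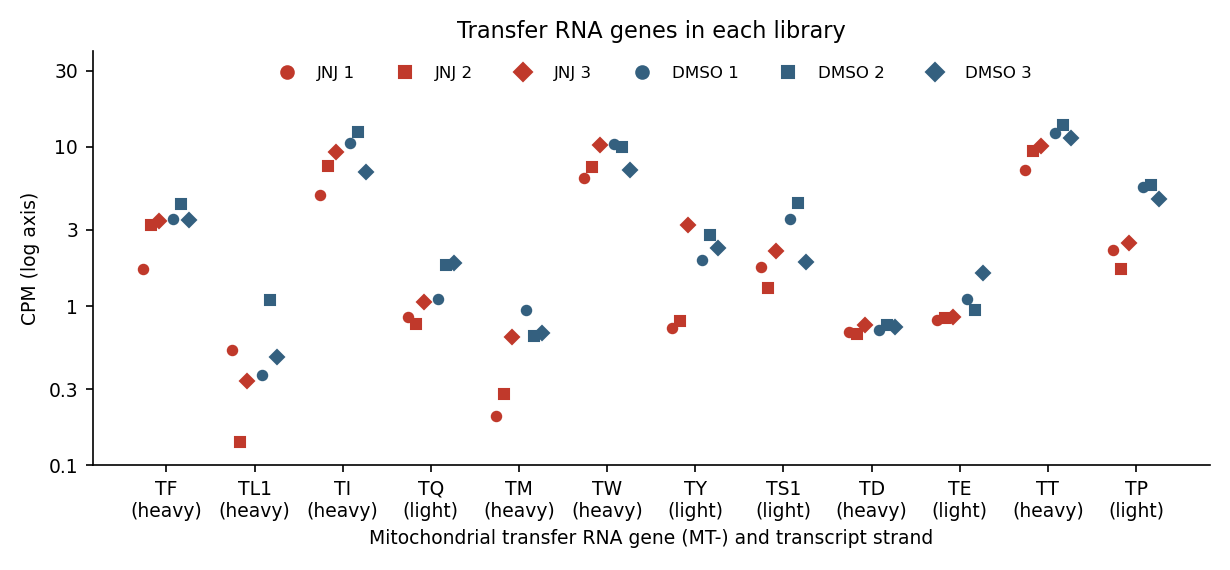
CPM on a log axis of the 12 tested mitochondrial transfer RNA genes in each library, with the strand of the transcript under each name. MT-TP shows the widest gap between groups, with JNJ libraries at 1.71 to 2.50 CPM and DMSO libraries at 4.69 to 5.76 CPM.

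Of the 10 transfer RNA genes not tested, MT-TN, MT-TK, MT-TG, MT-TR, MT-TH and MT-TL2 had 0 counts in all 6 libraries. A count of 0 allows a level of up to 0.0964 to 0.127 CPM, depending on the library, if reads on the gene could be counted. The counting rules are not fully given, so this limit may not hold. MT-TV, MT-TA, MT-TC and MT-TS2 had 53, 20, 35 and 2 counts over all 6 libraries. No direction was detectable for the genes not tested from these counts.

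How often a transfer RNA gene was counted went with its place in the genome. Of the 14 on the heavy strand, 7 have another heavy-strand gene within 2 bases on both sides, and their totals over 6 libraries ran from 0 to 81 counts, with 4 of the 7 at 0. In 6 others 1 side has no heavy-strand gene within 70 bases, and their totals ran from 95 to 1768 counts, MT-TT being the highest. MT-TK belongs to neither set and had 0 counts. The groupings were drawn after the counts were seen, and whether these counts come from mature transfer RNAs or from longer RNAs that run past a neighbouring gene was not tested.

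By strand, 8 of 21 tested heavy-strand genes fell, with a median log2 fold change of -0.18. On the light strand 4 of 6 tested genes fell, with a median of -0.72. Of all genes tested, 17.1% fell. The light-strand genes are MT-ND6 and transfer RNA genes, so strand and RNA class move together here. Among transfer RNA genes alone, 3 of 5 on the light strand fell (median -0.84) and 2 of 7 on the heavy strand fell (median -0.44). Summed CPM of light-strand transfer RNA genes was 7.61 ± 2.25 in JNJ cells and 14.1 ± 1.75 in DMSO cells (SD, n = 3 each). Within that sum, MT-TP alone averaged 2.15 CPM in JNJ cells and 5.35 CPM in DMSO cells. For heavy-strand transfer RNA genes the sum was 28.7 ± 6.68 CPM in JNJ cells and 37.6 ± 6.17 CPM in DMSO cells. The difference between the strands was not tested. The ratio of MT-TP to the neighbouring MT-TT, chosen after the values were seen, was 0.314, 0.184 and 0.248 in JNJ libraries and 0.461, 0.424 and 0.416 in DMSO libraries, with no overlap.

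Because the mitochondrial level as a whole varied between libraries, each gene was also read as a share of the mitochondrial counts. On that scale the median of all genes tested shifts by 0.17 on the log2 scale. The edgeR test with the mitochondrial total as library size then called 2 of the 27 genes, against 24.0% of all genes tested. Both were lower, against 3.43% of all genes tested, and 0 were higher, against 20.6%. That scale is the mitochondrial genes' own sum, while the other genes carry the shift. The shares over all genes are therefore not a like comparison. The 2 genes called were MT-TP, at -1.15 (SE 0.20, adjusted p = 4.32e-07), and MT-TS1, at -0.72 (SE 0.23, adjusted p = 0.00946). MT-RNR1 was at 0.24 (adjusted p = 0.0616, SE 0.0975, against 0.0677 with scaling over all genes). It passed only with the messenger RNA counts as library size, at 0.25 (adjusted p = 0.0427). In this last scaling the median of all genes shifts by 0.185.

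In the shares themselves, 20 of the 27 genes overlapped between the groups and 7 did not, against 33.5% of all genes tested without overlap. The JNJ libraries lay above all DMSO libraries in 3 genes, against 26.9% of all genes tested, and below in 4 genes, against 6.59%. The shares over all genes again carry the shift of that scale. MT-RNR1 held 4.14% ± 0.231 of mitochondrial counts in JNJ cells and 3.51% ± 0.121 in DMSO cells. MT-ND2 held 8.16% ± 0.148 in JNJ cells and 7.80% ± 0.0603 in DMSO cells, and MT-ND3 held 1.37% ± 0.0882 in JNJ cells and 1.17% ± 0.0545 in DMSO cells. These 3 shares were higher in every JNJ library. MT-CO1 held 11.8% ± 0.167 in JNJ cells and 12.4% ± 0.133 in DMSO cells, and MT-CO3 held 5.34% ± 0.0703 in JNJ cells and 5.80% ± 0.232 in DMSO cells. MT-TT and MT-TP completed the 4 genes with lower shares, MT-TP at 0.00123% ± 0.000176 in JNJ cells and 0.00271% ± 0.000039 in DMSO cells. The two-sided exact permutation test gave p = 0.1 for all 7, the smallest value that 3 against 3 libraries allow. Groups without overlap always give this value, so the test adds nothing for these 7.

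Copies of mitochondrial genes in nuclear DNA are close to the originals in sequence, and reads may be shared between them. The table held 404 such pseudogenes, 113 of them with any count, and their sum equalled 2.31, 2.49 and 2.41% of the mitochondrial counts in JNJ libraries and 2.31, 2.32 and 2.30% in DMSO libraries. Of 16 tested, 0 rose and 2 fell, against 20.0% and 17.1% of all genes tested. The median log2 fold change of the 16 was -0.22.

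The 8 most abundant were MTND1P23, MTND2P28, MTATP6P1, MTCO1P12, MTND4P12, MTCO2P12, MTND4P24 and MTCO1P42. MTND1P23, on chromosome 1 from 629062 to 629433, had 1846 ± 171 CPM in JNJ cells and 1956 ± 213 CPM in DMSO cells. It matched MT-ND1 at 99.4% of 349 aligned bases and stood at 10.7 to 11.9% of the MT-ND1 counts in JNJ libraries and 10.6 to 10.8% in DMSO libraries. MTND2P28 had 1385 ± 155 CPM in JNJ cells and 1504 ± 156 CPM in DMSO cells, and MTATP6P1 had 742 ± 74.5 CPM in JNJ cells and 821 ± 60.8 CPM in DMSO cells. These 3 lie on the plus strand of chromosome 1, in 1 stretch that ends at 634376, and are identical to their originals at 98.4 to 99.4% of aligned bases. In all 3, DMSO 3 was the lowest DMSO library and JNJ 3 the highest JNJ library, as in most mitochondrial messenger and ribosomal RNA genes. MTCO1P12 fell, with 88.5 ± 2.33 CPM in JNJ cells and 108 ± 7.17 CPM in DMSO cells (log2 fold change -0.29, adjusted p = 8.6e-05). MTCO2P12 fell too, with 28.7 ± 1.14 CPM in JNJ cells and 33.7 ± 2.01 CPM in DMSO cells (log2 fold change -0.23, adjusted p = 0.00518). Their originals MT-CO1 and MT-CO2 were at -0.25 and -0.17, and the part that shared reads have in them was not tested. MTND4P12 averaged 85.1 CPM in JNJ cells and 94.0 CPM in DMSO cells, MTND4P24 averaged 9.38 CPM in JNJ cells and 11.0 CPM in DMSO cells, and MTCO1P42 averaged 6.86 CPM in JNJ cells and 7.38 CPM in DMSO cells. None of these 3 passed. MTCO1P40, MTCO3P12 and MTND4P35 also had a mean of at least 1 CPM and did not pass.

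Of 101 nuclear genes listed for the upkeep and expression of mitochondrial DNA, 29 rose and 8 fell, against 20.0% and 17.1% of all genes tested, with a median log2 fold change of 0.06. The groups of factors did not share 1 direction. Among 10 genes of mitochondrial transcription 2 rose and 2 fell. TFAM, which packages mitochondrial DNA and starts transcription, had 56.9, 54.5 and 53.9 CPM in JNJ libraries and 65.2, 64.3 and 67.2 CPM in DMSO libraries, and fell by 0.25 on the log2 scale (adjusted p = 3.06e-04). TFB1M, which methylates the small ribosomal RNA, had 5.49, 5.70 and 7.16 CPM in JNJ libraries and 9.95, 9.27 and 9.67 CPM in DMSO libraries, and fell by 0.66 on the log2 scale (adjusted p = 7.28e-05). In both, the groups stood apart. The genes that rose were MTERF1, a factor that binds a termination site of transcription, at 0.34, and MTERF4, which acts in assembly of the large ribosomal subunit, at 0.32.

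Among 20 genes of mitochondrial DNA replication and upkeep 9 rose and 1 fell. POLG, the catalytic subunit of the mitochondrial DNA polymerase, had 146, 146 and 134 CPM in JNJ libraries and 93.5, 89.2 and 87.5 CPM in DMSO libraries (log2 fold change 0.66, adjusted p = 1.32e-10). Its accessory subunit POLG2 had 151, 158 and 157 CPM in JNJ libraries and 114, 109 and 105 CPM in DMSO libraries (log2 fold change 0.51, adjusted p = 3.64e-09). TK2, a kinase that supplies DNA precursors, rose by 0.49, and TYMP, a thymidine phosphorylase, rose by 0.44. DNA2, EXOG, TOP3A, DGUOK and TOP1MT, named after their values were seen, rose by 0.54, 0.42, 0.30, 0.25 and 0.19. DGUOK and TOP1MT kept their calls in 11 and 9 of 14 alternatives. The gene that fell was SSBP1, which coats single-stranded mitochondrial DNA, at -0.13 (adjusted p = 0.0485), named after its values were seen. It lost its call in 9 of 14 alternatives, each left-out library among them. No copy number of mitochondrial DNA was measured.

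Among 18 genes of transfer RNA processing and modification 4 rose and 2 fell. TRNT1, which adds the CCA end to transfer RNAs, had 24.7, 22.8 and 23.7 CPM in JNJ libraries and 34.0, 31.5 and 31.3 CPM in DMSO libraries, and fell by 0.45 on the log2 scale (adjusted p = 5.54e-06). CDK5RAP1, which modifies a base beside the anticodon, had 94.8, 98.9 and 102 CPM in JNJ libraries and 56.1, 55.4 and 54.6 CPM in DMSO libraries, and rose by 0.83 (adjusted p = 2.59e-12). PUS1, a pseudouridine synthase, rose by 0.51 and GTPBP3, which modifies the first anticodon base, rose by 0.52. The 2 remaining genes, named after their values were seen, encode subunits of the mitochondrial RNase P that cuts the 5′ end of transfer RNAs. They went in opposite directions, PRORP at 0.73 (adjusted p = 1.05e-04) and TRMT10C at -0.23 (adjusted p = 0.0262). TRMT10C lost its call without JNJ 1, DMSO 1 or DMSO 3 (adjusted p = 0.0634 to 0.142).

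Among 14 genes of messenger RNA stability, polyadenylation and decay 6 rose and 1 fell. LRPPRC, which binds and stabilises mitochondrial messenger RNAs, had 309, 289 and 301 CPM in JNJ libraries and 224, 221 and 228 CPM in DMSO libraries, and rose by 0.42 on the log2 scale (adjusted p = 4.41e-08). PNPT1 and SUPV3L1, the nuclease and helicase of the mitochondrial RNA degradosome, rose by 0.48 and 0.39. TBRG4, an RNA-binding protein of the FASTK family, rose by 0.29. MTPAP and FASTKD2, named after their values were seen, rose by 0.32 (adjusted p = 5.78e-04) and 0.19 (adjusted p = 0.00998). MTPAP kept its call in 14 of 14 alternatives and FASTKD2 in 10. The gene that fell was PDE12, a poly(A)-removing enzyme, at -0.19 (adjusted p = 0.0234), named after its values were seen. PDE12 lost its call without JNJ 2, JNJ 3, DMSO 2 or DMSO 3 (adjusted p = 0.0667 to 0.0899).

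Among 17 genes of ribosomal RNA modification and ribosome assembly 4 rose and 1 fell. MRM1, which methylates the large ribosomal RNA, had 7.43 ± 0.269 CPM in JNJ cells and 10.5 ± 1.39 CPM in DMSO cells and fell by 0.51 on the log2 scale (adjusted p = 7.72e-04). MTG1, a GTPase of large subunit assembly, had 23.9 ± 1.48 CPM in JNJ cells and 13.4 ± 0.143 CPM in DMSO cells and rose by 0.84 (adjusted p = 3.14e-09). RPUSD4, a pseudouridine synthase, rose by 0.44, ERAL1, a chaperone of the small ribosomal RNA, rose by 0.37, and MTG2, another assembly GTPase named after its values were seen, rose by 0.22.

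Among 14 translation factors 3 rose and 1 fell. The release factor MTRF1 rose by 0.67, the initiation factor MTIF2 by 0.54 and the elongation factor TUFM by 0.27, while the ribosome recycling factor MRRF fell by 0.16 on the log2 scale. Among 8 nuclear regulators 1 rose and 0 fell. PPARGC1B, a coactivator of mitochondrial biogenesis, had 24.4 ± 2.82 CPM in JNJ cells and 16.8 ± 0.662 CPM in DMSO cells and rose by 0.53 (adjusted p = 1.26e-05). GABPA was at 0.12, GABPB1 at -0.14 and YY1 at -0.08, and none of these transcription factors passed.

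**Figure D5:**
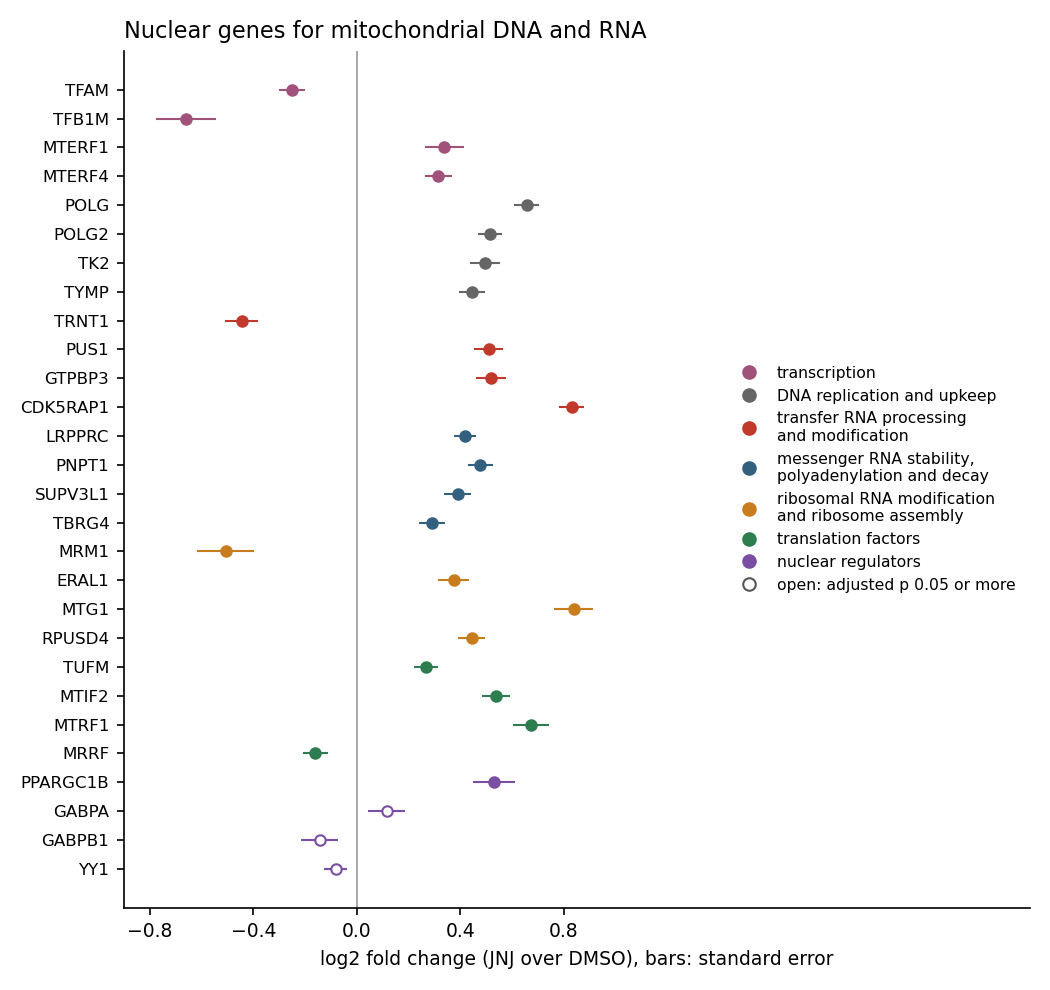
Log2 fold change (JNJ over DMSO), with standard errors as bars, of the 4 nuclear genes with the smallest p in each of 7 lists. Filled points passed the threshold. TFAM, TFB1M, TRNT1, MRM1 and MRRF lie left of 0, and the other filled points lie right of 0.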

How the data were processed

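Raw counts of reads per gene, with no normalization, were deposited by the authors in a single table that covers the 6 libraries. Per the labels' protocols, RNA was extracted on a Maxwell instrument, and 100 ng entered a stranded Illumina mRNA ligation kit. The tools named in the submitters' processing notes are STAR 2.7.9a, featureCounts 1.6.0, FastQC 0.11.8, limma and edgeR. The notes name the mouse build GRCm39, while the table carries human Ensembl identifiers. Not given in the sources used here are the strand setting, the multi-mapping rule and the annotation release. Counts of overlapping genes, of both strands and of nuclear copies are therefore uncertain.

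Repeated identifiers (44 rows, all at 0) were dropped, and 60463 of 60605 genes were matched to a symbol. Positions, lengths and sequences came from GENCODE release 29 (GRCh38), which may differ from the authors' annotation. Genes kept by filterByExpr (minimum count 10, minimum total count 15) were scaled by TMM and tested on group alone with glmQLFit and glmQLFTest (edgeR 4.0.16, R 4.3.3), with Benjamini-Hochberg adjustment over all genes kept and a threshold of 0.05. The script was tested on simulated data. CPM uses TMM-scaled library sizes. The smallest chi-square per degree of freedom between replicates was 2.56, above sampling noise, which does not show that cultures were separate. Each library was counted as 1 replicate. Alternatives were RLE, upper-quartile and mitochondria-free scaling, mitochondrial library sizes, other filters, DESeq2 1.42.0, limma-voom (3.58.1), a replicate block and leaving out each library.

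All mitochondrial genes were named, with library values for messenger and ribosomal RNAs. Also named were the pseudogenes with a mean of at least 1 CPM and, from each nuclear list, the 4 tested genes with the smallest p. Other nuclear genes past the threshold were named after their values were seen. The members and lists were chosen with earlier results of these data known. Of the cell type markers, 2 are not reported here.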

Additional observations from a re-analysis of the deposited data

How the results depend on the processing

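The count of mitochondrial genes that fell, 12 in the fit as reported, was 19 without a filter on low counts and 6 with DESeq2. It was 10 to 17 with the other filters, tools and designs and with the other scalings over all genes, 2 with each of the mitochondrial library sizes, and 5 to 21 when 1 library was left out. The count that rose was 0 to 1 when 1 library was left out, 1 (MT-RNR1) with the mitochondrial messenger RNA counts as library size, and 0 in the other alternatives. With the mitochondrial messenger RNA counts as library size, MT-ATP8 turned to 0.0026 (adjusted p = 0.990) and MT-ND4 to 0.00070 (adjusted p = 0.997), since that scale is set by these genes' own sum. The log2 difference of the mitochondrial share ran from -0.22 to -0.12 when 1 library was left out. Of 428 alternative values of single mitochondrial genes, 343 kept their side of the threshold, 47 lost the call and 36 gained it. A further 2 changed sign in genes called in 1 of the 2 fits compared. The 343 include changes of sign in genes called in neither fit, such as MT-RNR1 at -0.04 without DMSO 3. Of 714 for the nuclear genes and pseudogenes, 660 kept their side of the threshold, 28 lost the call and 26 gained it. Changes of sign without a call are again within the 660, as in MTCO1P40, which ran from -2.83 to 0.96. Upper-quartile scaling shifted the median of all genes by -0.06 and split them into 2800 higher and 4099 lower, against 3478 higher and 2970 lower. With the replicate number as a block, 11 genes fell. Same-numbered libraries did not deviate together over the genes tested (correlations -0.02, -0.01 and 0.00). Whether they share a culture or a batch was not tested. Counts were too few to test 10 of the transfer RNA genes, and what keeps them low was not tested.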
